A study of Mus musculus with 8 samples.

Results

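The last interval of a time course of mouse cardiac fibroblasts in osteogenic differentiation medium, day 21 against day 14, was compared across all genes, and each change was then set against day 7 to see whether it only brought a gene back to where it had been. The libraries were chosen by their labelled time: 2 of cells after 21 days in the medium and 2 after 14 days, 4 of the 8 libraries in all, with the 2 libraries of day 7 used for the question of return. All libraries share 1 background: fibroblasts of the heart from C57BL/6J mice, wild type and aged 8 weeks. Day 21, day 14 and day 7 cells were all grown in the differentiation medium, whose recipe no label gives. The libraries whose time label reads control were taken as day 0, before the medium. They entered only the filter on low values and the estimate of the spread. No library is labelled as cells kept for the same days without the medium, so time in the medium and time in culture cannot be told apart.

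Osteogenic medium is used to drive mesenchymal cells toward bone-forming cells, which lay down a collagen matrix and mineralise it with the help of the phosphatase encoded by Alpl. Fibroblasts build and remodel the collagen, fibronectin and fibrillin matrix of the heart, and TGF-beta signalling is the best known driver of that work. Immediate early genes such as Fos, Jun, Egr and Nr4a members encode transcription factors that cells switch on within minutes of a stimulus, without new protein synthesis, and that are usually low in resting cultures.

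Values are normalised counts (each gene's reads over its library's size factor). Differences are log2 of day 21 over day 14 after adding 1, with the standard error of the fit (n = 2 libraries at each time). The 4 libraries held between 14932213 and 19522382 reads assigned to genes. Replicates correlated less closely at day 21 (0.990) and day 14 (0.988) than at day 7 (0.994). Whether replicate libraries are separate cultures or separate animals is not stated, so every p-value reflects only how these samples spread. The fibroblast genes Pdgfra, which encodes a growth factor receptor of mesenchymal cells, and Tcf21, a transcription factor of cardiac fibroblasts, were well above the detection floor at every time, as given below.

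Of 13527 genes tested, 4664 (34.5%) passed an adjusted p of 0.05 between day 21 and day 14, of which 2735 (20.2%) were higher at day 21 and 1929 (14.3%) lower. Changes of at least 2-fold were made by 352 genes upward (2.6%) and 202 downward (1.49%). The median of all genes differed by 0.02 on the log2 scale. Against day 7, the same fit separated only 1182 genes (8.74%) at day 21, 738 higher and 444 lower, where day 14 and day 7 had been separated by 7038 (52.0%). That count was 521 without the first day 21 library, 262 and 299 without the first and second day 7 library, and 2169 and 2173 without the first and second day 14 library. The count of called genes between day 21 and day 14 depended on single libraries. It was 2303 without the second day 21 library and 2561 without the second day 14 library, and 5750 and 4399 without the first day 14 and first day 21 libraries, with no called gene changing sign in any of the 4 fits.

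Most changes of the third week ran opposite to a change of the second. A reversal was counted where day 14 differed from day 7 in the opposite direction by the same test, and 4015 of the 4664 called genes (86.1%) were reversals. Both steps share the day 14 libraries, so a deviation of those libraries alone would also appear as a change, a reversal and a return. A reversal was taken as a return where day 21 and day 7 were not separated and the 95% interval of their difference lay within 1.5-fold either way, which 2613 genes (19.3% of all tested) met. Returned genes were 596 with a margin of 25% and 3479 with a margin of 2-fold. Day 21 was as near to day 7 in 7678 of the 13527 genes tested (56.8%), whatever day 14 did, and in 4834 of the 8863 genes not called between day 21 and day 14 (54.5%). Of the returned genes 1614 had been below day 7 at day 14 and 999 above it. A partial return, with day 21 still called on the day 14 side of day 7, was found for 340 genes (2.51%). Another 1026 reversals (7.58%) could not be resolved, because day 21 was not called against day 7 but the interval reached past 1.5-fold.

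The rest fell in other classes. Day 21 lay within the return margin of day 7 in 2844 of the 4664 called genes, more than the 2613 classed as returned. Some genes outside the returned class therefore also ended near day 7. In 36 genes (0.266%) day 21 went past day 7 to the other side, 30 upward and 6 downward, and in 48 genes (0.355%) the third week continued the second, 37 upward and 11 downward. For 601 genes (4.44%), 378 higher and 223 lower at day 21, no second-week change had been called. A gene whose second-week step missed the threshold is also counted there. Seen from the second week, 1614 of 3653 genes that were lower at day 14 than at day 7 had returned by day 21 and 1322 were not called between day 21 and day 14, whereas of 3385 genes higher at day 14, 999 had returned and 1653 were not called. The classes moved with single libraries. The partial class held 939 genes without the first day 14 library, 71 without the first day 21 library, and 33 and 31 without the first and second day 7 library. Returned genes numbered 1016 without the second day 21 library, 1449 without the second day 14 library, and 1286 and 1322 without the first and second day 7 library, while unresolved genes numbered 1618 and 1566 without those day 7 libraries. Genes past day 7 numbered 72 without the first day 14 library, and 4 and 3 without the first and second day 7 library.

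**Figure D1:**
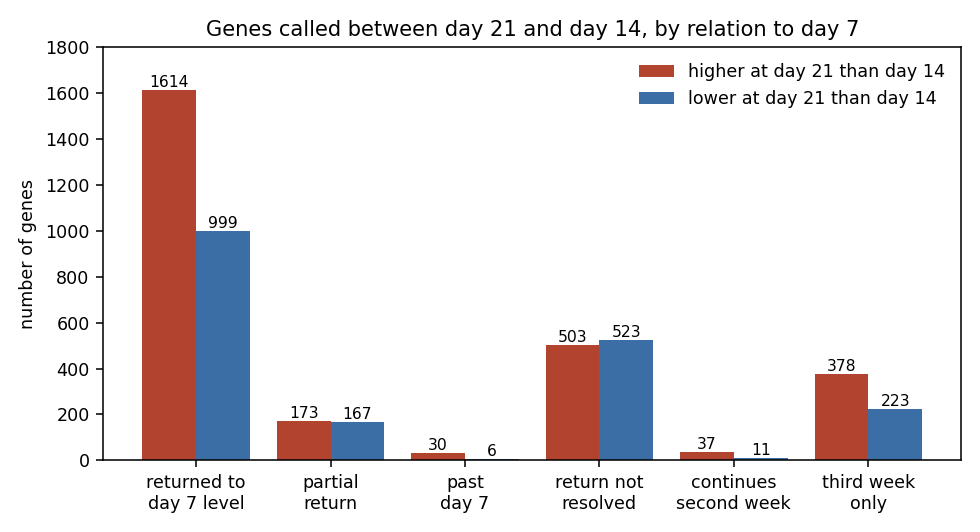
Number of genes called between day 21 and day 14 (adjusted p below 0.05, limma), split by how day 21 stood to day 7, with red bars for genes higher and blue bars for genes lower at day 21. Returned genes are the most numerous in both directions, 1614 higher and 999 lower, and continuation of the second week is rare.

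Transcript length moved with these changes. The difference between day 21 and day 14 rose by 0.258 on the log2 scale for each doubling of transcript length, where that between day 14 and day 7 had fallen by 0.402. In the quintile of genes with the shortest transcripts the median difference was -0.32 and 34.0% were called lower at day 21, and in the quintile with the longest it was 0.37 and 46.5% were called higher. Measured against the day 7 mean, the slope was -0.191 and -0.0966 in the day 21 libraries and -0.335 and -0.469 in the day 14 libraries, so day 14 lay farthest from day 7 and replicates differed by up to 0.134. With a linear trend on length and GC content removed from each library, 3745 genes (27.7%) passed, with 2298 up and 1447 down. Of these, 2897 were called in the same direction without the removal, while 156 of the 4664 calls took the other sign under it. Reversals were then 2907 of 3745 calls (77.6%) and 2188 genes returned, 1342 of them among the 2613 above. The removal also takes out any true change that follows length or GC content, and counts after it are given for most groups below. List counts below stand against 20.2% of all tested genes called higher and 14.3% lower, or 17.0% and 10.7% after the removal. Of 48 list counts between 1 and 4 genes, 34 moved by over 1.5 times when some library was left out, so such counts rest on few genes.

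**Figure D2:**
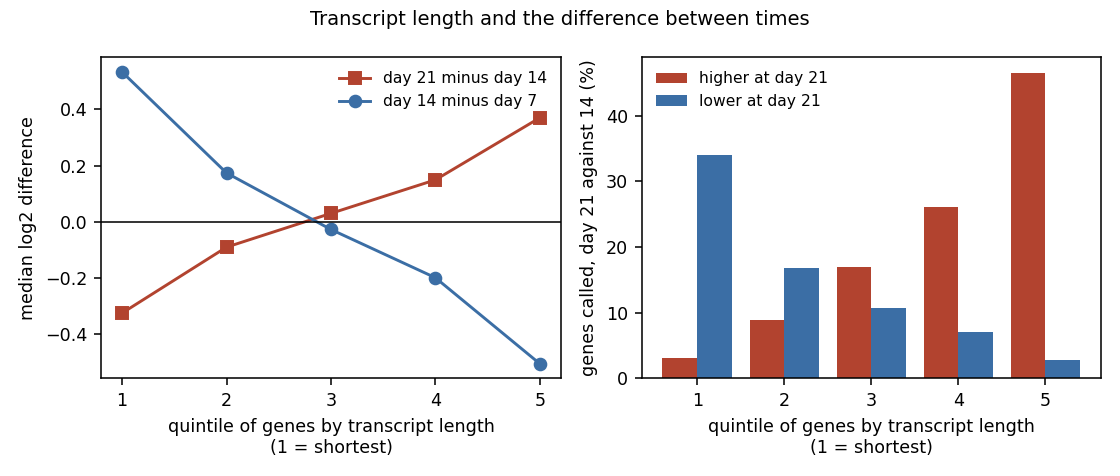
Left, median log2 difference for quintiles of genes by transcript length, in red squares for day 21 minus day 14 and blue circles for day 14 minus day 7. Right, percent of genes in each quintile called higher (red) or lower (blue) at day 21 than at day 14. The lines mirror each other, from -0.32 to 0.37 in the third week and from 0.53 to -0.50 in the second.

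Immediate early genes led the rises, and none of them was only a return. Of 25 listed members, all tested, 21 rose and 0 fell, with a median log2 difference of 1.57, and 21 rose and 0 fell with the length and GC trend removed as well (median 1.58), where 17.0% of all genes were higher and 10.7% lower. Against day 7 the counts were also 21 and 0, with a median of 1.68, where 5.46% of all genes were called higher and 3.28% lower. By class 12 had no called second-week change, 5 continued one and 4 went past day 7, and 0 were reversals that stopped at or short of day 7. Leaving out any 1 of the 6 libraries of days 7, 14 and 21 left between 19 and 22 members called higher.

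The promoters of 4 of the genes with the largest rises are shown because 21 of the 25 listed members rose and 0 were classed as returned. They run from 250 bases before to 50 bases after the start, 5′ to 3′ on the gene's strand, as RefSeq gives them on GRCm38.p6, which is not the build of the authors' processing (mm9). Capitals mark TGACG or CGTCA, the core that cyclic AMP response factors bind, read on either strand.
Fosb (chr7:19309996-19310295, minus strand): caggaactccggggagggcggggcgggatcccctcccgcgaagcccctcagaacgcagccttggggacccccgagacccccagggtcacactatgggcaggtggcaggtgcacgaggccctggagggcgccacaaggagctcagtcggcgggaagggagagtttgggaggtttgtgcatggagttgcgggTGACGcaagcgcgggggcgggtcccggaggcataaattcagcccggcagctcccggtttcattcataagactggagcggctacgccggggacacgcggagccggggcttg
Nr4a3 (chr4:48045055-48045354, plus strand): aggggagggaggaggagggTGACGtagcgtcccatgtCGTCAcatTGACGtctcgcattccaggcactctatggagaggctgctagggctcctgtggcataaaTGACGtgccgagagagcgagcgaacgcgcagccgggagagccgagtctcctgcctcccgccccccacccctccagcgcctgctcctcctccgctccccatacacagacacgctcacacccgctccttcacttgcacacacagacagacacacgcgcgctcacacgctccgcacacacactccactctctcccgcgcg
Nr4a1 (chr15:101266596-101266895, plus strand): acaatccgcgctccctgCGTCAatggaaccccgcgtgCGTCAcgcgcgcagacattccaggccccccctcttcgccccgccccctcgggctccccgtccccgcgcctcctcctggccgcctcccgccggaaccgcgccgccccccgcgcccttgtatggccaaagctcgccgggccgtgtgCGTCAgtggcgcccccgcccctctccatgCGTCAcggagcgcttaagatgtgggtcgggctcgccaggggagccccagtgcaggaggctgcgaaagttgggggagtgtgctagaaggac
Jun (chr4:95052173-95052472, minus strand): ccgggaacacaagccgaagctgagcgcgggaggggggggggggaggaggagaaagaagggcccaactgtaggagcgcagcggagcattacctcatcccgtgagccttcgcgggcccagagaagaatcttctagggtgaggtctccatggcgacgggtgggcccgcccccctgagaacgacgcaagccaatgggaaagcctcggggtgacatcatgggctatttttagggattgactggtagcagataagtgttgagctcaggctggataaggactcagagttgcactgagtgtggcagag
TGACG or CGTCA occurred 4 times each in the Nr4a3 and Nr4a1 windows, 1 time in that of Fosb and 0 times in that of Jun. The 2 spellings are the same core on opposite strands, and both occur in a full palindromic element, where each is counted. A window of this length held the core in 20.81% of 32851 promoters and in 16 of the 26 promoters listed for the 20 immediate early genes that had an entry. The CArG box, the element of serum response factor, was in none of the 4 windows, in 1.629% of all promoters and in 5 of those 26, which belong to 2 genes. Such matches describe letters in a window and not binding.

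Fosb, which pairs with Jun proteins in the AP-1 transcription factor, had 218 and 251 normalised counts at day 7, 186 and 328 at day 14, then 3974 and 5654 at day 21. Fosb rose by 4.26 ± 0.26 on the log2 scale (adjusted p = 3.41e-06). Both day 21 libraries stood far above all libraries of days 7 and 14, which overlapped each other. Nr4a1, an orphan nuclear receptor induced by many stimuli, had 766 and 916 at day 7, 848 and 1096 at day 14, then 7608 and 12793 at day 21. Nr4a1 rose by 3.35 ± 0.21 on the log2 scale (adjusted p = 3.74e-06). Its relatives Nr4a3 and Nr4a2 had 160.2 and 263 at day 21 against 14.6 and 8.18 at day 14, and 254 and 426 at day 21 against 47.4 and 40.9 at day 14, a log2 difference of 4.11 ± 0.37 and 2.87 ± 0.24. Nr4a3 had fallen in the second week (adjusted p = 0.0027) and passed its day 7 level of 40.1 and 34.8 at day 21.

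Jun and Fos, the founding AP-1 subunits, moved with them. Jun had 497 and 591 normalised counts at day 7, 375 and 450.0 at day 14, then 2333 and 4559 at day 21. Jun rose by 2.99 ± 0.23 on the log2 scale (adjusted p = 1.52e-05). Fos had 4468 and 5549 at day 7, 3888 and 5252 at day 14, then 22002 and 29518 at day 21. Fos rose by 2.50 ± 0.16 on the log2 scale (adjusted p = 5.4e-06). In both genes day 21 was separated from the earlier libraries without overlap, and the 2 day 21 libraries themselves differed, the second being higher in Fosb, Nr4a1, Jun and Fos.

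Egr2, a zinc finger factor of the same early wave, had 1572 and 1946 normalised counts at day 21 against 215 and 325 at day 14. Egr2 rose by 2.72 ± 0.19 on the log2 scale (adjusted p = 8.41e-06). Atf3, a stress-induced factor of the ATF family, had 67.4 and 62.4 at day 7, 108 and 106 at day 14, then 524 and 752 at day 21 and so rose in both weeks (log2 difference 2.54 ± 0.20, adjusted p = 1.61e-05). Btg2, an antiproliferative gene that p53 can induce, also continued a smaller second-week rise, with 8736 and 11265 at day 21 against 2146 and 2702 at day 14 (2.04 ± 0.14).

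Other early genes with large rises encode regulators of signalling. Dusp1, a phosphatase that inactivates MAP kinases, had 13900 and 18135 normalised counts at day 21 against 4022 and 4599 at day 14. Dusp1 rose by 1.88 ± 0.13 on the log2 scale (adjusted p = 6.88e-06). Rgs2, which shortens G protein signals, and Sik1, a kinase induced by cyclic AMP, differed by 2.77 ± 0.24 and 2.10 ± 0.17. Ppp1r15a, which reverses the block of translation in the integrated stress response, had 7827 and 13912 at day 21 against 2083 and 2738 at day 14 (2.13 ± 0.21). Not every early gene moved: Klf6 had 4586 and 4217 at day 7, 4375 and 3767 at day 14, then 3949.7 and 3686 at day 21 (log2 difference -0.09 ± 0.10, adjusted p = 0.517), and Maff had 2379 and 1959 at day 21 against 2484 and 2669 at day 14 (log2 difference -0.25 ± 0.10, adjusted p = 0.0759).

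**Figure D3:**
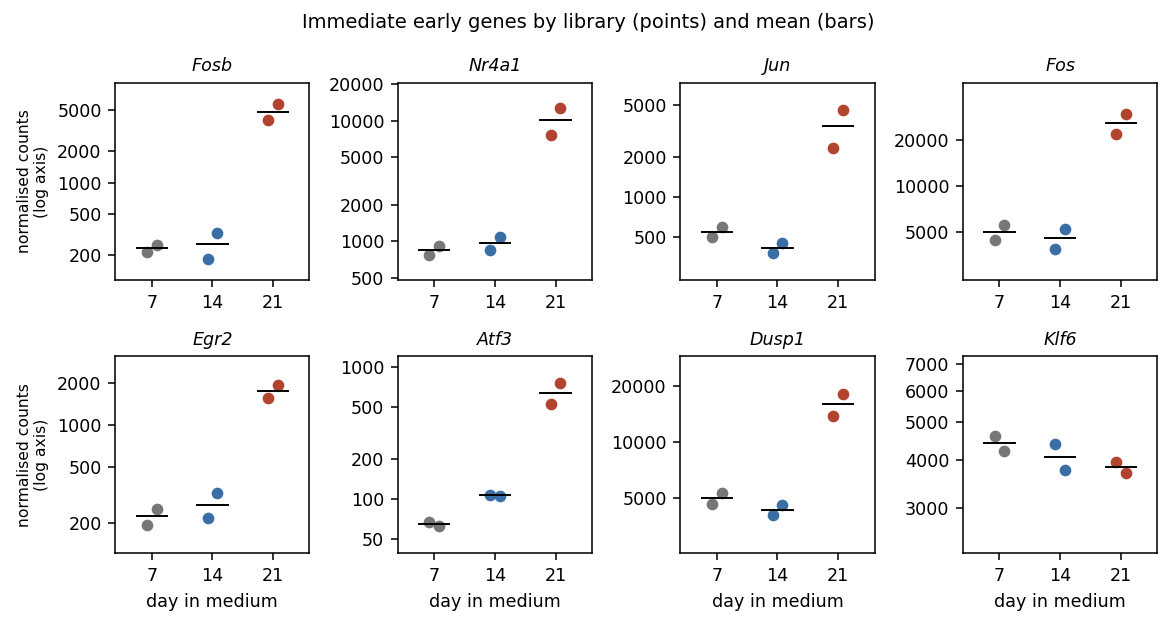
Normalised counts (log axis) of 8 immediate early genes in each library (points) with the mean of the 2 libraries (bars) at days 7, 14 and 21. In 7 of the genes both day 21 libraries lie above all the others, whereas Klf6 shows no such step.

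Inflammatory signals rose for a subset of genes. Of 24 tested chemokines and NF-kappaB targets 10 were higher and 0 lower at day 21 (median 0.35), 14 and 0 with the length and GC trend removed, and 6 were called higher without the second day 21 library. Cxcl1, a neutrophil-attracting chemokine, had 161 and 229 normalised counts at day 7, 286 and 452 at day 14, then 1448 and 3348 at day 21 (log2 difference 2.61 ± 0.32, adjusted p = 0.000264), with a log2 difference of 2.01 without the second day 21 library and 3.21 without the first. Il6, the cytokine interleukin-6, had 107 and 111 at day 7, 109 and 137 at day 14, then 286 and 384 at day 21. Il6 rose by 1.43 ± 0.17 on the log2 scale (adjusted p = 0.000237). Both lay above the earlier libraries without overlap.

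Cxcl5, another neutrophil chemokine, had 518 and 511 normalised counts at day 21 against 229 and 230.2 at day 14 (log2 difference 1.16 ± 0.14, adjusted p = 0.000232), while Icam1, a leukocyte adhesion molecule, had 1782 and 1938 at day 21 against 1643 and 1505 at day 14 and was not called (log2 difference 0.24 ± 0.10, adjusted p = 0.0804). In the acute-phase list 4 of 12 tested members rose and 0 fell, with a median of 0.10. Ptx3, a soluble pattern recognition protein, fell below day 7 in the second week and passed it in the third, with 2144 and 2288 at day 7, 1646 and 1435 at day 14, then 2738 and 3416 at day 21. Ptx3 rose by 0.99 ± 0.12 on the log2 scale (adjusted p = 0.000232). Steap4, a metalloreductase induced by inflammation, had 1563 and 1893 at day 21 against 1122 and 729 at day 14 (0.93 ± 0.19). Serpina3n, a secreted protease inhibitor and the gene with the most reads in every library of days 7 to 21, had 520980 and 492720 at day 21 against 503650 and 414360 at day 14 and was not called (log2 difference 0.15 ± 0.18, adjusted p = 0.549).

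Among bone genes Alpl rose, whereas Runx2 did not pass the test. Alpl, tissue-nonspecific alkaline phosphatase, had 68.3 and 99.8 normalised counts at day 7, 214 and 198 at day 14, then 630.2 and 351 at day 21. Alpl rose by 1.19 ± 0.28 on the log2 scale (adjusted p = 0.00783). It rose in each week, so that day 21 was above day 7 by log2 2.50 ± 0.28, adjusted p = 0.000238. The third-week part rested on the first day 21 library, without which the log2 difference was 0.77 with an adjusted p of 0.073, whereas without the second it was 1.61. Runx2, the transcription factor that starts osteoblast differentiation, had 210.4 and 265 at day 7, 217 and 162 at day 14, then 197 and 259 at day 21 and was not called (log2 difference 0.26 ± 0.20, adjusted p = 0.322).

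Of 9 osteoblast regulators tested 2 rose and 0 fell (median 0.11), with rises near the 20.2% called higher over all genes. With the length and GC trend removed 1 rose. With 1 library left out the median ranged from 0.07 without the second day 21 library to 0.24 without the first. Of 10 bone matrix and osteocyte markers 3 rose and 1 fell (median 0.09, or 3 and 0 with the trend removed), where 20.2% of all genes rose and 14.3% fell. Among those not tested, Sp7, the factor downstream of Runx2, and Ibsp, bone sialoprotein, were listed at 0 in every library, but so was Hmgcs1, a cholesterol synthesis gene in general use, so a listed 0 need not mean silence. Spp1, osteopontin, had 6119.5 and 5058 at day 7, 9546 and 11082 at day 14, then 8301 and 5839.9 at day 21. Spp1 fell by 0.56 ± 0.16 on the log2 scale (adjusted p = 0.0159), and that fall was not called without the second day 21 library (-0.31, adjusted p = 0.157) or the second day 14 library (-0.46, adjusted p = 0.0853), nor with the trend removed (log2 -0.22, adjusted p = 0.172). Omd, osteomodulin, had 139.9 and 169 at day 21 against 236 and 191 at day 14 and was not called (log2 difference -0.46 ± 0.20, adjusted p = 0.0998).

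With the length and GC trend removed, 8 of 18 tested regulators of mineral rose and 0 fell, where 17.0% of all genes were called higher and 10.7% lower. Without the removal 6 rose and 1 fell (median 0.24), where 20.2% of all genes were called higher and 14.3% lower. Of these, 4 returned, and without the first day 21 library 3 were higher. Mgp, matrix Gla protein, which keeps soft tissue from calcifying, had 147680 and 143360 normalised counts at day 7, 224310 and 222560 at day 14, then 149660 and 147870 at day 21. Mgp fell by 0.59 ± 0.13 on the log2 scale (adjusted p = 0.00502). Both day 21 libraries lay just above both of day 7, and the difference had a 95% interval of -0.24 to 0.31 on the log2 scale. With the length and GC trend removed no difference between day 21 and day 14 was called (log2 -0.03, adjusted p = 0.897).

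Ank, which exports the mineralisation inhibitor pyrophosphate, had 1426 and 1434 at day 7, 1077 and 929 at day 14, then 1381 and 1372 at day 21. Ank rose by 0.46 ± 0.10 on the log2 scale (adjusted p = 0.00464) and returned. Enpp1, which makes pyrophosphate, had 401 and 369 at day 7, 268 and 242 at day 14, then 343 and 335 at day 21. Enpp1 rose by 0.41 ± 0.12 on the log2 scale (adjusted p = 0.0197). Its call was lost when either day 21 library (adjusted p = 0.0597 without the first and 0.0646 without the second) or the second day 14 library (0.0898) was left out, and with the length and GC trend removed (log2 0.17, adjusted p = 0.243). Tnfsf11, the osteoclast-inducing ligand RANKL, had 176 and 162 at day 21 against 130.3 and 79.5 at day 14 (log2 difference 0.73 ± 0.27, adjusted p = 0.0568), which missed the threshold, although day 21 stood above day 7 (log2 2.44 ± 0.27, adjusted p = 0.000212). In the cartilage list 5 of 12 tested members rose and 1 fell (4 and 2 with the trend removed), with 2 higher without the second day 21 library. Sox9, the cartilage master regulator, had 3774 and 3710.5 at day 7, 2067 and 1819 at day 14, then 2151 and 2700.1 at day 21 with an adjusted p of 0.0495. That p was 0.227 without the second day 14 library, 0.347 without the second day 21 library, and 0.085 and 0.0853 without the first and second day 7 library. The call was also lost with the trend removed (adjusted p = 0.106), in edgeR (0.0571) and with the replicate block (0.067).

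Matrix genes recovered much of the fall of the second week. Of 23 collagen chain genes 18 rose and 1 fell, with a median log2 difference of 0.73, after a second-week median of -1.04. Day 21 remained below day 7 for 8 of them and above it for 0, and by class 8 were partial, 6 unresolved and 3 returned. With the length and GC trend removed, which bears on a list of median transcript length 6119 bases, 13 rose and 2 fell (median 0.44). The median without the removal ranged from 0.55 to 0.92 with 1 library left out.

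Col5a1, a chain of the fibril-nucleating collagen V, had 13556 and 15485 normalised counts at day 7, 4723 and 3902 at day 14, then 8904 and 11784 at day 21. Col5a1 was 2.39-fold higher, adjusted p = 0.000171, still below day 7 (log2 -0.50 ± 0.14, adjusted p = 0.047). The basement membrane chain gene Col4a2 had 89824 and 100080 at day 7, 27060 and 20652 at day 14, then 47874 and 64821 at day 21. Col4a2 rose by 1.24 ± 0.17 on the log2 scale (adjusted p = 0.000484) and was also a partial return. For Col1a1, the main fibrillar collagen of scar and bone, the values were 64015 and 73190 at day 7, 24910 and 19925 at day 14, then 44351 and 63744 at day 21. Col1a1 was 2.39-fold higher, adjusted p = 0.000609. Its day 21 libraries spread so widely that the return was not resolved, with an interval of -0.75 to 0.02 for day 21 minus day 7. Col3a1, which forms mixed fibrils with collagen I, had 158760 and 186750 at day 21 against 101600 and 77882 at day 14 (0.95 ± 0.17), and Col6a3, of the beaded collagen VI filaments, had 1087 and 1638 at day 21 against 478 and 346 at day 14 (1.71 ± 0.19). Col27a1, a minor fibrillar collagen, went the other way without being called, at 80.1 and 83.7 at day 21 against 119 and 133 at day 14 (log2 difference -0.62 ± 0.23, adjusted p = 0.0541).

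Other matrix and elastic fibre genes followed, with 21 of 25 higher and 1 lower (median 0.79, or 17 and 1 with a median of 0.53 with the length and GC trend removed), although only 13 were called higher without the second day 14 library and likewise without the second day 21 library. Fn1, fibronectin, had 111370 and 126930 normalised counts at day 7, 29427 and 22916 at day 14, then 66708 and 105880 at day 21. Fn1 rose by 1.69 ± 0.21 on the log2 scale (adjusted p = 0.000246). Both day 21 libraries stayed under both of day 7, yet day 21 was not called against day 7 (log2 -0.50 ± 0.21, adjusted p = 0.154) and the return was not resolved. Fbn1, the microfibril protein fibrillin-1, had 14526 and 16651 at day 7, 4025 and 3166 at day 14, then 8613 and 10712 at day 21. Fbn1 rose by 1.43 ± 0.14 on the log2 scale (adjusted p = 7.92e-05) and stayed below day 7 (log2 -0.70 ± 0.14, adjusted p = 0.0116). Hspg2, the basement membrane proteoglycan perlecan, had 16383 and 21491 at day 7, 5659 and 4724 at day 14, then 14632 and 18742 at day 21. Hspg2 rose by 1.68 ± 0.17 on the log2 scale (adjusted p = 7.68e-05) and returned.

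The hyaluronan-binding proteoglycan gene Vcan (versican) and Svep1, a large cell adhesion protein, returned as well, at 1.54 ± 0.14 and 1.49 ± 0.17. Lamc1, the laminin chain common to most laminins, had 12636 and 13682 at day 21 against 5567 and 3984 at day 14 (1.48 ± 0.14). Nid2, which links laminin to collagen IV in basement membranes, did not recover: it had 6777 and 7695 at day 7, 3091 and 2460.2 at day 14, then 3112 and 2702 at day 21 (log2 difference 0.07 ± 0.12, adjusted p = 0.673), and remained under day 7 (log2 -1.32 ± 0.12, adjusted p = 5.16e-05). Fndc1, a fibronectin domain protein, had the largest rise among the partial returns named here, with 3750.2 and 3986 at day 7, 788 and 565 at day 14, then 2181 and 2898 at day 21. Fndc1 rose by 1.91 ± 0.16 on the log2 scale (adjusted p = 2.28e-05).

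Enzymes that modify collagen rose in most cases. Of 21 tested 15 rose and 0 fell (median 0.46, or 13 and 0 with the length and GC trend removed), and 10 returned. P4ha1 and P4ha2, subunits of the prolyl hydroxylase that stabilises the collagen helix, had 6621 and 7358 at day 21 against 3523 and 3297 at day 14, and 1944 and 2029 at day 21 against 1049.6 and 1053 at day 14 (1.03 ± 0.09 and 0.92 ± 0.09). Plod3, a lysyl hydroxylase, had 6509 and 7382 at day 7, 4439 and 4147 at day 14, then 7267 and 8056 at day 21. Plod3 rose by 0.83 ± 0.10 on the log2 scale (adjusted p = 0.000264), and Loxl1, a crosslinking oxidase of elastic fibres, had 15960 and 18575 at day 7, 11104 and 10293 at day 14, then 16132 and 18569 at day 21. Loxl1 rose by 0.69 ± 0.12 on the log2 scale (adjusted p = 0.00142). In both genes the day 21 and day 7 libraries overlapped. Lox, the main collagen crosslinking oxidase, had 50754 and 45485 at day 21 against 41803 and 33097 at day 14 and narrowly missed the threshold (log2 difference 0.37 ± 0.14, adjusted p = 0.0533).

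TGF-beta pathway genes rose almost throughout, with 18 of 20 higher and 1 lower (median 0.60, or 16 and 1 with the length and GC trend removed), and 10 returned. With 1 library left out the median ranged from 0.50 to 0.77. Tgfbr2, the ligand-binding receptor, had 6274 and 6344 normalised counts at day 7, 3581 and 2582 at day 14, then 6092 and 6731 at day 21. Tgfbr2 rose by 1.07 ± 0.14 on the log2 scale (adjusted p = 0.000322). Smad7, the inhibitory Smad that TGF-beta itself induces, had 1513 and 1585 at day 7, 1051 and 1074 at day 14, then 2245 and 2952 at day 21. Smad7 rose by 1.28 ± 0.13 on the log2 scale (adjusted p = 0.000104) and so passed its day 7 level (log2 0.73 ± 0.13, adjusted p = 0.00556). Among activated fibroblast genes 6 of 18 rose and 1 fell, where 20.2% of all genes were called higher and 14.3% lower. Postn, periostin, of activated fibroblasts, had 7408 and 6759.5 at day 7, 2402 and 2134 at day 14, then 3420 and 4553 at day 21. Postn rose by 0.80 ± 0.13 on the log2 scale (adjusted p = 0.0015), a partial return. Cyr61, a matricellular target of YAP and of early response factors, had 15931 and 17306 at day 7, 14155 and 16022 at day 14, then 31845 and 41749 at day 21 with no called change in the second week (log2 difference 1.28 ± 0.13, adjusted p = 0.000104). Ctgf, a close relative and TGF-beta target, had 51339 and 56812 at day 21 against 56220 and 53697 at day 14 and was not called (log2 difference -0.02 ± 0.12, adjusted p = 0.892). Of 23 tested metalloproteinases and their inhibitors 12 rose and 1 fell, and 8 returned.

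**Figure D4:**
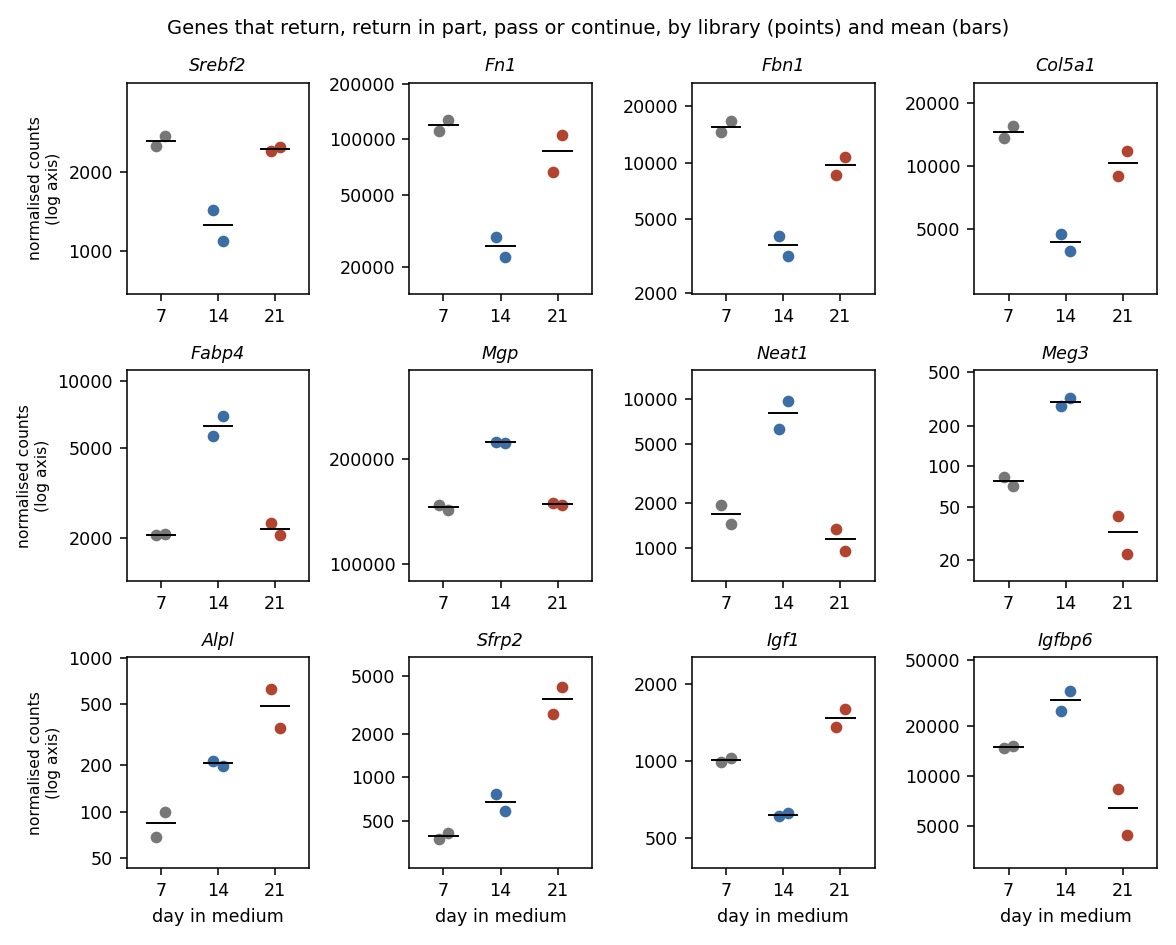
Normalised counts (log axis) of 12 genes in each library (points) with the mean of the 2 libraries (bars) at days 7, 14 and 21. Srebf2, Fabp4 and Mgp at day 21 lie near their day 7 level, Fbn1 and Col5a1 stop short of it, Meg3, Igf1 and Igfbp6 pass it, and Alpl and Sfrp2 go on in the direction of the second week.

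Growth factor genes included several that went past day 7. In the IGF, FGF and PDGF list 11 of 27 tested rose and 4 fell (median 0.19, or 11 and 3 with the length and GC trend removed). Igf1, insulin-like growth factor 1, had 988 and 1032 normalised counts at day 7, 606 and 624 at day 14, then 1355 and 1595 at day 21. Igf1 rose by 1.26 ± 0.10 on the log2 scale (adjusted p = 2.28e-05). Day 21 lay above both earlier times without overlap. Igfbp5, which binds IGFs in bone and matrix, had 4534 and 5144 at day 7, 2572 and 2134 at day 14, then 6444 and 10303 at day 21. Igfbp5 rose by 1.80 ± 0.18 on the log2 scale (adjusted p = 7.55e-05), also above day 7 (log2 0.75 ± 0.18, adjusted p = 0.0214). Igfbp6, which prefers IGF-II, moved the opposite way, with 14742 and 15140 at day 7, 24692 and 32567 at day 14, then 8398 and 4421 at day 21. Igfbp6 fell by 2.22 ± 0.23 on the log2 scale (adjusted p = 0.000118). Its 2 day 21 libraries were below every library of days 7 and 14.

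Wnt, Notch and BMP genes were mixed in class. Sfrp2, a secreted modulator of Wnt signals, was among the few that continued, with 375 and 413 normalised counts at day 7, 764 and 581 at day 14, then 2712 and 4194 at day 21. Sfrp2 rose by 2.34 ± 0.18 on the log2 scale (adjusted p = 1.54e-05). Of the 20 tested Wnt genes 7 rose and 0 fell (median 0.30, with the same counts after removal of the length and GC trend), and Wnt5a, a noncanonical ligand, had 336 and 329 at day 21 against 203 and 151 at day 14 and returned (0.92 ± 0.15). In the Notch list 8 of 13 rose and 1 fell (median 0.78, or 6 and 1 with the trend removed), with 4 higher without the second day 21 library. Hes1, a repressor that Notch and early signals induce, had 1086 and 1152 at day 7, 1112 and 1473 at day 14, then 4097 and 4947 at day 21. Hes1 rose by 1.81 ± 0.14 on the log2 scale (adjusted p = 1.52e-05). Notch1, the receptor, had 729 and 763 at day 7, 231 and 187 at day 14, then 432 and 686 at day 21. Notch1 rose by 1.39 ± 0.18 on the log2 scale (adjusted p = 0.000426), an unresolved return. Of 27 tested BMP and activin genes 13 rose and 1 fell (median 0.42, or 10 and 1 with the trend removed), and Acvr1 and Bmpr2, receptors of the family, returned with 0.87 ± 0.12 and 0.90 ± 0.13, while 7 and 8 members were higher without the second day 14 and second day 21 library.

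Clock genes rose in 10 of 18 tested cases and fell in 0 (median 0.44, or 7 and 0 with the length and GC trend removed). Bhlhe40, a clock repressor that many stimuli induce, had 972 and 1094 normalised counts at day 7, 850.0 and 753 at day 14, then 2632 and 2579 at day 21. Bhlhe40 rose by 1.70 ± 0.10 on the log2 scale (adjusted p = 3.41e-06) and passed day 7 (log2 1.34 ± 0.10, adjusted p = 9e-06). Nfil3, a repressor in the same circuit, had 1287 and 1363 at day 21 against 607 and 686 at day 14 and passed day 7 as well (1.04 ± 0.10). Per1, a core clock and glucocorticoid-induced gene, had 1176 and 1319 at day 7, 920.2 and 968 at day 14, then 1436 and 1704 at day 21 and returned (log2 difference 0.73 ± 0.11, adjusted p = 0.0008). Both day 21 libraries of Per1 lay above both of day 7, within the margin of return. The hour of harvest is not given.

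Lipid synthesis genes rose as a group. In the cholesterol list 16 of 23 tested rose and 0 fell (median 0.52, or 18 and 0 with the length and GC trend removed), with 7 returned and 7 without a called second-week change. Without the first day 21 library 10 were called higher. Srebf2, the transcription factor that drives sterol synthesis, had 2527 and 2742 at day 7, 1429 and 1096 at day 14, then 2418 and 2506 at day 21. Srebf2 rose by 0.98 ± 0.12 on the log2 scale (adjusted p = 0.000242) and returned. Hsd17b7, an enzyme of the sterol pathway, had 1417 and 1036 at day 21 against 632 and 509.6 at day 14 (1.09 ± 0.14).

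Fatty acid synthesis genes rose in 10 of 15 tested and fell in 0, also with the length and GC trend removed, with 6 returned. Fasn, fatty acid synthase, had 3651 and 4491 at day 7, 1608 and 1635 at day 14, then 3874 and 4507 at day 21. Fasn rose by 1.37 ± 0.12 on the log2 scale (adjusted p = 4.17e-05). Scd2, a stearoyl-CoA desaturase, had 9576 and 10487 at day 7, 4069 and 3380 at day 14, then 11079 and 8457 at day 21. Scd2 rose by 1.38 ± 0.14 on the log2 scale (adjusted p = 7.58e-05), and in both genes day 21 overlapped day 7. Lrp1, an endocytic receptor, returned in the same way (1.64 ± 0.17). The adipocyte markers gave no such picture, with 3 of 14 higher and 1 lower (median 0.11). Without the second day 21 library 1 was higher (median -0.05), as without either day 7 library, whereas without the first day 21 library 4 were (median 0.36). Fabp4, the fatty acid carrier of fat cells, was the one that fell, with 2046 and 2065 at day 7, 5671 and 6967 at day 14, then 2323 and 2062 at day 21. Fabp4 fell by 1.52 ± 0.15 on the log2 scale (adjusted p = 7.87e-05), a full return. Adipoq, adiponectin, had 0.911 and 2.67 at day 7, 20.04 and 21.0 at day 14, then 12.8 and 35.0 at day 21 and was not called between day 21 and day 14 (log2 difference 0.05 ± 0.60, adjusted p = 0.955). Pparg, the adipocyte master regulator, had 89.7 and 109.9 at day 21 against 96.6 and 79.5 at day 14 (log2 difference 0.18 ± 0.26, adjusted p = 0.624). Cebpb, an early adipogenic factor that inflammatory signals also induce, rose to 4296 and 4941 at day 21 against 2294 and 2736 at day 14 (0.88 ± 0.12).

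Lysosomal genes rose in 17 of 26 cases and fell in 1 (median 0.38, or 18 and 2 with the length and GC trend removed), 10 without a called second-week change and 8 returned. Man2b1, a mannosidase, had 3342 and 4376 at day 21 against 2332 and 1986 at day 14 (0.83 ± 0.12). Ctsd, cathepsin D, had 117830 and 115750 at day 21 against 95686 and 98603 at day 14 and was not called (log2 difference 0.27 ± 0.13, adjusted p = 0.136). In glycolysis and hypoxia genes 9 of 22 rose and 2 fell (median 0.21, or 13 and 1 with the length and GC trend removed). Slc2a1, the glucose transporter GLUT1, had 1862 and 1985 at day 7, 1108 and 930.3 at day 14, then 1736 and 1723 at day 21 and returned (log2 difference 0.77 ± 0.10, adjusted p = 0.000432). Hk2, an inducible hexokinase, had 336 and 316 at day 7, 220.5 and 210.4 at day 14, then 440.1 and 469 at day 21 and passed day 7 (log2 difference 1.07 ± 0.11, adjusted p = 8.22e-05).

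Stress genes rose in part. Of 25 unfolded protein and integrated stress genes 11 rose and 2 fell (median 0.29), or 17 and 0 with the length and GC trend removed. Hspa1a, an inducible HSP70 chaperone, had 439 and 486 normalised counts at day 7, 227 and 224 at day 14, then 607 and 811 at day 21. Hspa1a rose by 1.63 ± 0.13 on the log2 scale (adjusted p = 2.28e-05) and ended above day 7. Hspe1, the mitochondrial chaperonin HSP10, fell with 1380 and 962 at day 21 against 1829 and 2319 at day 14 (-0.84 ± 0.15), and 4 of 15 heat shock genes rose and 4 fell (6 and 3 with the trend removed). Calr, the endoplasmic reticulum chaperone calreticulin, had 39369 and 35102 at day 21 against 32093 and 32218 at day 14 and was not called (log2 difference 0.21 ± 0.11, adjusted p = 0.165). Among 21 antioxidant genes 3 rose and 7 fell (5 and 4 with the length and GC trend removed), with 3 and 4 called lower without the second day 14 and second day 21 library, and Gpx1, a glutathione peroxidase, had 4328 and 4302 at day 7, 7642 and 10112 at day 14, then 5282 and 4199 at day 21 and returned (log2 difference -0.90 ± 0.14, adjusted p = 0.00086).

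The lists with the most falls were those of ribosomal protein, proteasome and oxidative phosphorylation genes, and in these the calls depended on the length and GC trend and on single libraries. Of 30 ribosomal protein genes 20 fell and 0 rose (median -0.42), and with the trend removed 4 fell and 2 rose (median -0.06). Without the second day 21 library 1 fell, and without the second day 14 library 8. Rpl32, of the large subunit, had 3939.7 and 4009 normalised counts at day 7, 7605 and 10393 at day 14, then 6189.5 and 5074 at day 21. Rpl32 fell by 0.67 ± 0.14 on the log2 scale (adjusted p = 0.00427), but with the trend removed it was not called (log2 -0.22, adjusted p = 0.0714). Rplp0, a stalk protein of the ribosome, had 22230 and 18172 at day 21 against 20378 and 23672 at day 14 (log2 difference -0.13 ± 0.13, adjusted p = 0.458). By class 14 of the 20 were partial returns. Reads of ribosomal protein genes can also be shared with near-identical pseudogenes.

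Proteasome genes fell in 18 of 25 cases and rose in 0 (median -0.43), and 17 of the 18 returned, with 6 lower and 1 higher after removal of the trend. Lower calls numbered 9 without the second day 21 library and 11 without the second day 14 library. Psma7, a subunit of the catalytic core, had 1698 and 1804 at day 7, 2868 and 3431 at day 14, then 2159 and 1746 at day 21. Psma7 fell by 0.69 ± 0.12 on the log2 scale (adjusted p = 0.00161) and was called with the trend removed as well (log2 -0.50, adjusted p = 0.00365). Psmd2, of the regulatory cap, had 3942 and 3546 at day 21 against 3563 and 3486 at day 14 (log2 difference 0.09 ± 0.09, adjusted p = 0.491). Of 28 oxidative phosphorylation genes 15 fell and 1 rose (median -0.31), against 4 and 2 with the trend removed, and without the second day 21 and second day 14 library 3 and 6 fell. Cox6c, a subunit of complex IV, had 1186 and 1188 at day 7, 2285 and 3001 at day 14, then 1856 and 1429 at day 21. Cox6c fell by 0.68 ± 0.14 on the log2 scale (adjusted p = 0.0039). Atp5b, the catalytic subunit of ATP synthase, had 17470 and 16106 at day 21 against 15912 and 16752 at day 14 (log2 difference 0.04 ± 0.10, adjusted p = 0.792).

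Long noncoding RNAs, with a median transcript length of 6983 bases, fell where long transcripts in general were higher. Of 11 tested 10 fell and 0 rose (median -1.40), and the same counts held with the trend removed, with a median of -2.08. Leaving out any 1 library left 10 or 11 lower. After a second-week rise of a median of 1.73, 7 were unresolved, 2 partial and 1 past day 7. Meg3, an imprinted noncoding RNA, had 82.9 and 71.3 normalised counts at day 7, 282 and 323 at day 14, then 42.7 and 22.4 at day 21. Meg3 fell by 3.24 ± 0.27 on the log2 scale (adjusted p = 2.41e-05). It ended below its day 7 values (log2 -1.28 ± 0.27, adjusted p = 0.0133).

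Neat1, the scaffold RNA of nuclear paraspeckles, had 1926 and 1435 at day 7, 6330.3 and 9766 at day 14, then 1343 and 950.3 at day 21. Neat1 fell by 2.80 ± 0.23 on the log2 scale (adjusted p = 2.28e-05). Malat1, an abundant nuclear RNA of splicing speckles, had 762 and 657 at day 7, 2878 and 3122 at day 14, then 804 and 426 at day 21. Malat1 fell by 2.35 ± 0.21 on the log2 scale (adjusted p = 4.37e-05), and Firre, a nuclear RNA of the X chromosome, had 66.2 and 44.7 at day 21 against 297 and 296 at day 14 (-2.42 ± 0.36). In all 3 the 2 day 14 libraries stood above every library of days 7 and 21. Airn, an imprinted antisense RNA, had 27.8 and 12.6 at day 21 against 27.3 and 28.1 at day 14 and was not called (log2 difference -0.53 ± 0.34, adjusted p = 0.238). The strand of the libraries is not known here, so reads of such genes cannot be told from those of overlapping genes on the other strand.

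Among coding genes Leng8 and Ogt, which encodes the O-GlcNAc transferase of nuclear and cytosolic proteins, also rose in the second week and ended below day 7. Leng8 had 612 and 551 at day 7, 1205 and 1266 at day 14, then 410.1 and 421 at day 21. Leng8 fell by 1.57 ± 0.11 on the log2 scale (adjusted p = 6.88e-06), and Ogt had 785 and 759 at day 7, 1099.7 and 1014 at day 14, then 605 and 532 at day 21. Ogt fell by 0.90 ± 0.11 on the log2 scale (adjusted p = 0.000264). Cst6, a cysteine protease inhibitor, had 381 and 322 at day 21 against 721 and 981 at day 14 (-1.26 ± 0.15). As3mt, an arsenite methyltransferase, had 10.9 and 10.7 at day 7, 199 and 217 at day 14, then 37.4 and 31.1 at day 21. As3mt fell by 2.57 ± 0.23 on the log2 scale (adjusted p = 4.37e-05), one of the largest falls, and even so remained above day 7 (log2 1.57 ± 0.23, adjusted p = 0.00167).

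**Figure D5:**
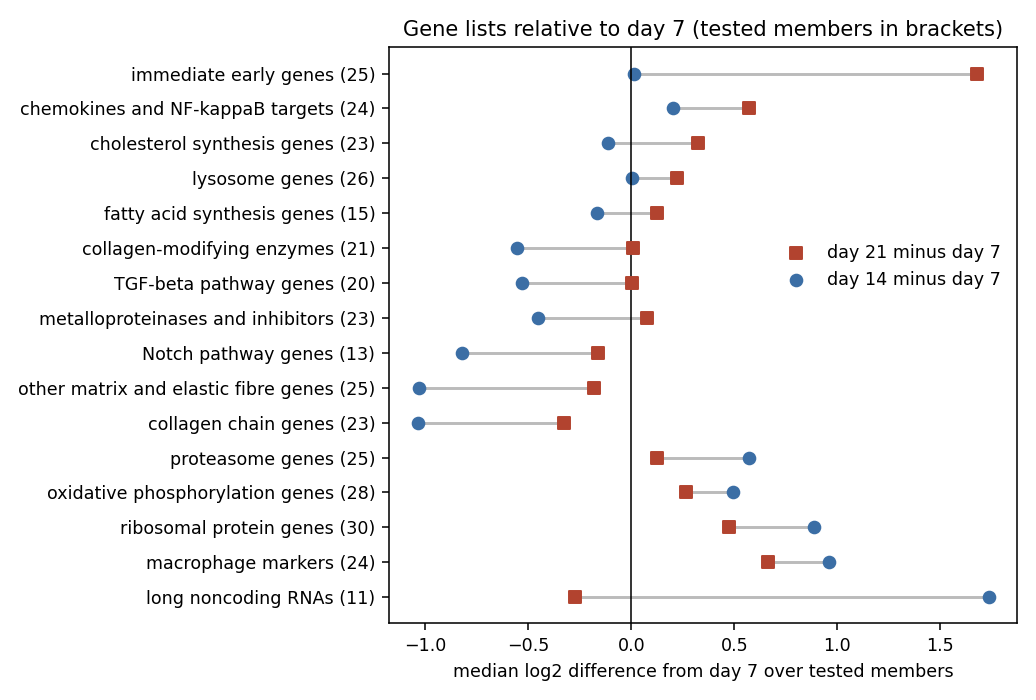
Median log2 difference from day 7 over the tested members of 16 gene lists, with red squares for day 21 and blue circles for day 14, joined by a line (number of tested members in brackets). The immediate early genes lie 1.68 above day 7 at day 21 against near 0 at day 14, whereas the collagen, TGF-beta and collagen-modifying lists lie nearer to 0 at day 21 than at day 14.

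Fibroblast identity genes showed no common direction. Of 20 resting fibroblast markers 5 rose and 3 fell (median -0.07, or 3 and 1 with a median of 0.12 with the length and GC trend removed). Without the second day 14 library 3 rose and 5 fell, and without the second day 21 library 2 rose. Pdgfra had 9352 and 9659 normalised counts at day 7, 5416 and 3864 at day 14, then 9709 and 10112 at day 21. Pdgfra rose by 1.11 ± 0.13 on the log2 scale (adjusted p = 0.000232), and Tcf21 had 7188 and 6951 at day 7, 11859 and 10897 at day 14, then 7865 and 8826 at day 21. Tcf21 fell by 0.45 ± 0.10 on the log2 scale (adjusted p = 0.00495). Both returned within the 1.5-fold margin, from opposite sides of day 7. In each gene both day 21 libraries lay above both of day 7, which for Tcf21 is still the day 14 side. The fall of Tcf21 was not called with the length and GC trend removed (log2 -0.24, adjusted p = 0.0935). Gsn, the actin-severing protein gelsolin, had 276020 and 370010 at day 21 against 283210 and 273270 at day 14 (log2 difference 0.20 ± 0.17, adjusted p = 0.372).

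In the contractile list 8 of 21 rose and 4 fell (median -0.05, or 4 and 3 with a median of 0.03 with the length and GC trend removed). Without the second day 21 library 4 were higher and 1 lower, and 7 and 2 were lower without the first and second day 14 library. Acta2, the smooth muscle actin of myofibroblasts, had 7615 and 7680.4 at day 7, 7294 and 8733 at day 14, then 7894 and 8466 at day 21 and was not called (log2 difference 0.03 ± 0.11, adjusted p = 0.83). Vcl, the adhesion protein vinculin, rose (0.95 ± 0.14) and Tpm2, a tropomyosin, fell (-0.88 ± 0.17). Of 23 glucocorticoid response genes 6 rose and 2 fell (median 0.15, or 7 and 2 with the trend removed), where 20.2% of all genes were called higher and 14.3% lower. Fkbp5, a standard glucocorticoid target, had 4755 and 5036 at day 21 against 4365 and 4470.5 at day 14 (log2 difference 0.15 ± 0.10, adjusted p = 0.261). Klf9, another, had 3389.5 and 3165 at day 7, 2235 and 1249 at day 14, then 3171 and 3623 at day 21 and returned (log2 difference 1.02 ± 0.20, adjusted p = 0.00306), with 0.60 without the second day 14 library, while Errfi1, a feedback inhibitor of the EGF receptor, rose past day 7 (0.97 ± 0.10).

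Cell cycle genes changed in few cases. Of 25 mitosis genes 2 rose and 2 fell (median -0.11), and of 27 DNA replication genes 1 rose and 3 fell, or 7 without the first day 21 library. Mki67, the proliferation marker, had 53.7 and 51.7 at day 7, 21.9 and 32.7 at day 14, then 31.0 and 36.0 at day 21 and was not called (log2 difference 0.31 ± 0.20, adjusted p = 0.26), and Cdk1, the mitotic kinase, had 179 and 178 at day 21 against 273 and 286 at day 14. Cdk1 fell by 0.64 ± 0.11 on the log2 scale (adjusted p = 0.00189).

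Markers of other cells were measured as well, and in bulk RNA fewer cells of a type cannot be told from less RNA per cell. Of 24 macrophage markers 0 rose and 3 fell (median -0.17), or 0 and 2 with the length and GC trend removed (median 0.05). The median was -0.48 without the first day 14 library and 0.20 without the second. Their summed level was 15381 and 12413 at day 7, 25212 and 46682 at day 14, then 25196 and 26086 at day 21, so the second day 14 library stood apart. Lyz2, the macrophage lysozyme, had 9187 and 7306 at day 7, 16975 and 31689 at day 14, then 16693 and 15255 at day 21 (log2 difference -0.54 ± 0.22, adjusted p = 0.0714). Tyrobp, an adaptor of myeloid receptors, had 225 and 262 at day 21 against 286 and 579 at day 14 with an adjusted p of 0.0458 that was 0.467 without the second day 14 library, 0.179 and 0.11 without the first and second day 21 library, and 0.0644 and 0.0643 without the first and second day 7 library. With the length and GC trend removed it was 0.585. Interferon-stimulated genes were called lower in 1 of 29 cases and higher in 0 (median -0.15). Their summed level at day 14 was 40329 and 26117, so here the first library was the higher, unlike for the macrophage markers. The median was 0.19 without the first day 14 library and -0.62 without the second.

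Of 14 endothelial markers 1 rose and 4 fell (median -0.62). Cdh5, VE-cadherin, had 63.8 and 83.8 at day 7, 14.6 and 10.5 at day 14, then 3.2 and 7.78 at day 21 (log2 difference -1.14 ± 0.34, adjusted p = 0.0228), a continuing fall at few reads that was not called without the first day 14 (adjusted p = 0.0763) or first day 21 library (0.149) or by edgeR and DESeq2. Tie1, an endothelial receptor, had 4.27 and 3.89 at day 21 against 10.9 and 9.35 at day 14. Tie1 fell by 1.13 ± 0.32 on the log2 scale (adjusted p = 0.018), also lost in edgeR and DESeq2 and without the first day 14 (0.0533) or second day 21 library (0.0662). Eng, endoglin, shared with mesenchymal cells, rose (0.71 ± 0.12) and returned. Eng had 14585 and 17200 at day 21 against 10316 and 9114 at day 14 and made up most of the list's sum of 15282 and 18032 at day 21 against 11150 and 9823.3 at day 14. The other 15 members summed to 697.45 and 832.61 at day 21 against 833.65 and 709.43 at day 14.

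Mesothelial and epithelial markers fell in 3 of 9 tested cases and rose in 0, also with the length and GC trend removed. The median was 0.04 (0.06 with the trend removed), so the list did not fall as a whole. Krt8 and Cdh1 were at 0 at both times. The summed level was 1565.8 and 780.1 at day 21 against 2408.9 and 2425.2 at day 14. Msln, mesothelin, had 404 and 400.3 at day 7, 1103 and 1254 at day 14, then 674 and 246 at day 21 (log2 difference -1.53 ± 0.32, adjusted p = 0.00428), with -2.25 without the first day 21 library and -0.80 without the second. Upk3b, a mesothelial uroplakin, had 399.9 and 371 at day 7, 456 and 392 at day 14, then 237 and 156 at day 21. Upk3b fell by 1.13 ± 0.17 on the log2 scale (adjusted p = 0.000882). Tnnt2, cardiac troponin T, had 11739 and 11078 at day 7, 22419 and 28771 at day 14, then 10580 and 5849 at day 21. Tnnt2 fell by 1.69 ± 0.21 on the log2 scale (adjusted p = 0.00027). The other 15 cardiomyocyte markers summed to between 31.1 and 33.1 normalised counts at day 21 and between 50.3 and 55.6 at day 14, with Myh6 and Myl2 at 0 at both times. What part these cells had in the changes of other genes was not tested.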

How the data were processed

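RNA of cultured mouse cardiac fibroblasts was sequenced in 8 libraries, 2 at each of days 0, 7, 14 and 21. The deposited table holds a signal for each of 24015 genes, which is its reads over the library's size factor, and 100% of values were whole reads within 0.01 after dividing by the value of 1 read. Per the submitters' processing notes TopHat2 2.0.11, HTSeq 0.6.1, DESeq (version not given) and the genome mm9 were used, with roles not stated. Annotation and strand are not given in the sources used.

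Genes with at least 10 normalised counts in at least 2 libraries (13527) were log2-transformed after adding 1 and fitted with limma 3.58.1 (trend) over all 8 libraries, with 4 residual and 8.16 prior degrees of freedom. P-values were adjusted over all tested genes by the Benjamini-Hochberg method, with calls under 0.05. Such log2 differences understate changes of low genes. Return classes come from 3 contrasts of that fit with a margin of 1.5-fold. Alternatives were edgeR 4.0.16 and DESeq2 1.42.0 on the recovered reads, other scalings, filters and thresholds, a length and GC trend removed, and libraries left out (R 4.3.3, Python 3.11.15, matplotlib 3.10.9). GENCODE M21 gave transcript lengths for 98.4% of genes. The fits were tested on simulated data.

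The libraries compared and the 49 gene lists, written from general knowledge, were chosen with earlier results of these data known. Genes named in the text are the 10 largest rises and falls that passed the test, reached a mean of 50 at the higher time and had no overlap (predicted gene models aside), the 5 largest per return class and direction, up to 4 called and 2 uncalled members per list, and a fixed set of bone, fibroblast and fat genes. The rule picks 315 genes, of which the text gives 118, and some are not reported here.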

Additional observations from a re-analysis of the deposited data

How the results depend on the processing

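Called genes between day 21 and day 14 numbered 4664 and kept to within 1.5 times of that under both pseudocounts, both filters, TMM and DESeq2 size factors, edgeR (4820), DESeq2 (3936) and the fit of days 7, 14 and 21. They numbered 2635 (1596 higher, 1039 lower) with only days 14 and 21 in the fit, 2347 (1545 and 802) at an adjusted p under 0.01 and 554 (352 and 202) at 2-fold or more. With 1 library left out they ranged from 2303 to 5750, higher genes from 1495 to 3315 and lower genes from 808 to 2435. TMM factors moved the median of all genes to 0.00 and the share of higher calls from 58.64% to 55.57%. At 2-fold or more day 14 and day 7 were separated by 1415 genes.

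Day 21 against day 7 gave 739 genes with no filter beyond 1 read, 722 without day 0, 412 at 0.01, 283 at 2-fold or more, and 262 to 2173 with 1 library left out. Returned genes were 1310 at 0.01, 53 at 2-fold or more and 596 with a margin of return of 25%, and 1016 to 3403 with 1 library left out. Partial returns were 189 with the length and GC trend removed, 149 with no filter, 131 without day 0, 44 at 0.01, 8 at 2-fold or more, and 31 to 939 with 1 library left out. Genes past day 7 were 22 with no filter, 19 without day 0, 8 at 0.01, 2 at 2-fold or more and 3 to 72 with 1 library left out. Unresolved genes were 485 with the trend removed, 638 at 0.01, 276 at 2-fold or more, 3043 with that margin and 160 with a 2-fold one, and 202 to 1618 with 1 library left out. Continuing genes were 28 with no filter, 10 at 0.01, 6 at 2-fold or more and 21 to 55 with 1 library left out. Genes changed in the third week only were 337 at 0.01, 209 at 2-fold or more and 305 to 870 with 1 library left out. The cause was not tested, except that stricter thresholds call fewer genes by construction.

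Whether the replicate numbers pair the samples is not stated. The deviations of same-numbered libraries correlated at -0.036 to 0.074 between times, which cannot exclude a pairing. The second minus the first library also followed transcript length, by -0.134 for each doubling at day 14 and 0.095 at day 21, which could hide a shared part. With the replicate block 4521 genes were called between day 21 and day 14, with 0 calls changing sign. Of 118 genes named in the text, 94 were called. Of these, 7 lost the call in some fit without 1 library, 7 with the length and GC trend removed, 3 in edgeR, 2 in DESeq2 and 1 under the replicate block. Depth limits genes with few reads, such as Cdh5, Tie1 and Adipoq.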
